A study of Caenorhabditis elegans with 12 samples.

Results

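The genes described here act at the chromosome pairing centres of Caenorhabditis elegans, the sites at which each chromosome finds its homologue in early meiosis. Of 8 genes listed by name (zim-1, zim-2, zim-3, him-8, sun-1, zyg-12, plk-2 and chk-2), 7 were matched exactly by gene name, out of 40961 gene names in the deposited tables. zyg-12 was not analysed here. They were measured in gonads dissected by needle from adult F3 worms, descended from P0 animals that had been exposed for 48 h. In the BPA group the P0 ancestors had been given bisphenol A (BPA), a chemical used to make plastics, at 100 µM. The ancestors of the DMSO group had been kept in 0.1% dimethyl sulfoxide, a solvent used as vehicle, and those of the water group in water. All groups were grown on OP50 bacteria at 20 °C. The labels name no strain or genotype, and do not say how many gonads entered a library or whether the 4 samples of a group were separate cultures. Each group had 4 libraries, 12 in all, named here by exposure and sample number. The p-values therefore measure only the spread between these libraries, which may be technical.

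In meiotic prophase, pairing centres are bound by a family of zinc finger proteins. ZIM-1 serves chromosomes II and III, ZIM-2 chromosome V, ZIM-3 chromosomes I and IV, and HIM-8 the X chromosome. The bound centres attach to the nuclear envelope, where the inner membrane protein SUN-1 and the outer membrane protein ZYG-12 link them to the dynein motor outside. The kinase CHK-2 starts this programme by modifying the zinc finger proteins, and the Polo-like kinase PLK-2 is then recruited to the centres, where it promotes pairing and synapsis. Loss of him-8 leads to missegregation of the X chromosome and so to many male offspring.

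The 7 genes were expressed at moderate levels with 1 exception, and none differed between the ancestral exposures past the test. The measure is RPKM, which scales reads to transcript length and library size, and levels of different genes are set side by side on it. What cDNA amplification and the assignment of reads do to levels between genes was not tested. The order of the means over the 12 libraries was plk-2 (57.2 RPKM), sun-1 (42.6 RPKM), zim-3 (40.2 RPKM), zim-2 (34.9 RPKM), zim-1 (30.4 RPKM), chk-2 (11.1 RPKM) and him-8 (1.09 RPKM). Set among the 7570 genes tested, plk-2 had a higher mean than 79.5% of them, chk-2 than 45.1% and him-8 than 5.91%. A gene was tested if 4 or more of the 12 libraries held it at 1 RPKM or above, and all 7 met this. Neighbours in this order kept it in each of the 12 libraries, except that sun-1 was below zim-3 in water 1 and water 4. Genes further apart in the order did not keep it in water 1. There zim-1, zim-2 and zim-3 (48.1, 49.8 and 49.9 RPKM) lay above plk-2 (35.8 RPKM) and sun-1 (33.5 RPKM). Each gene was represented by 1 transcript at a locus with no other gene name.

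The libraries had an estimated depth of 14 to 33.1 M reads (M, 1e6), judged by the step between the lowest values of a library. The estimate is rough, because only 33.2% to 37.3% of low values were whole multiples of that step to within 0.1 read. Germ line markers (6 genes) summed to between 790 and 2080 RPKM in every library and oocyte markers (8 genes) to between 4958 and 8341 RPKM, so the libraries carried the labelled tissue. Sperm markers reached at most 118 RPKM (water 3) and intestinal markers at most 969 RPKM (DMSO 3). Markers of other somatic tissue were present too. Body wall muscle markers summed to between 49.2 and 127 RPKM, and those of the gonadal sheath and distal tip to between 63.2 and 146 RPKM. Hypodermis markers lay between 1.15 and 26.6 RPKM and neuron markers between 1.58 and 26.8 RPKM. Water 1 stood apart from the other libraries. Its median correlation with them over the tested genes was 0.884, against 0.919 to 0.944 for each of the others, and its sums of germ line markers (790 RPKM) and oocyte markers (4958 RPKM) were the lowest of the 12. So was that of meiotic prophase markers (4 genes), at 249 RPKM in water 1 against 312 to 423 RPKM in the others. The part of these markers in the members' values in water 1 was not tested. It held the highest value of the 12 for 32.7% of the tested genes and the lowest for 23%. In such bulk samples, fewer cells of a type and less RNA per cell cannot be told apart.

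**Figure D1:**
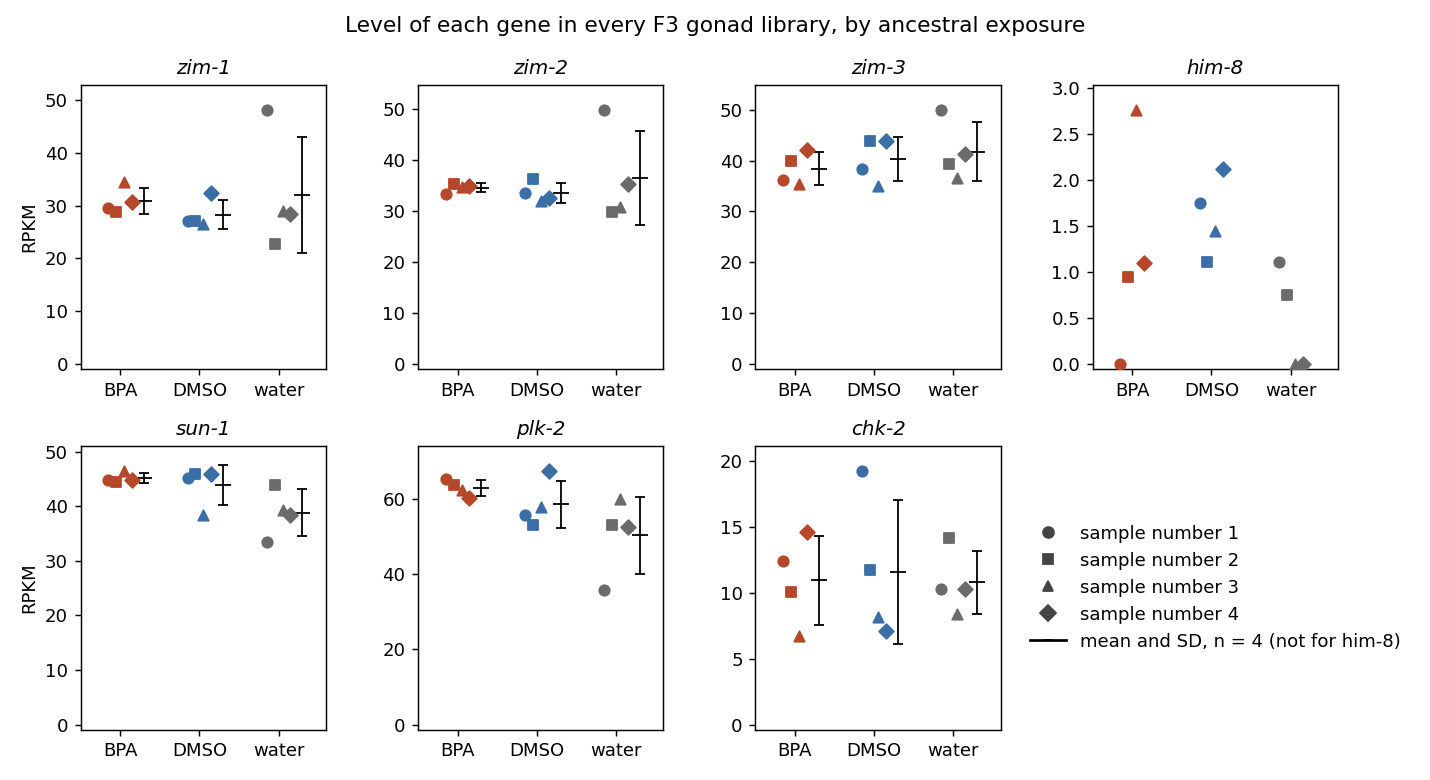
RPKM of the 7 pairing centre genes (vertical axes) in every F3 gonad library, by ancestral exposure (horizontal axes). Symbols give the sample number, and bars the mean and SD of 4 libraries, except for him-8, which has no bars. The zim genes are highest in water 1, where plk-2 and sun-1 are lowest, and him-8 is listed at 0 in 3 libraries.

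Among the zinc finger genes, zim-1 was listed at 29.6, 28.8, 34.5 and 30.6 RPKM in the BPA libraries (1 to 4), at 27.1, 27.1, 26.5 and 32.5 RPKM in the DMSO libraries and at 48.1, 22.8, 28.9 and 28.3 RPKM in the water libraries. Water held both the highest and the lowest library, and all groups overlapped. On the log2(RPKM + 1) scale BPA differed from DMSO by 0.12 (SE 0.19; limma, adjusted p = 1) and from water by -0.001 (SE 0.19; limma, adjusted p = 1), or 0.21 without water 1.

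zim-2 was listed at 33.3, 35.3, 34.7 and 34.9 RPKM in the BPA libraries (1 to 4), at 33.6, 36.3, 31.9 and 32.5 RPKM in the DMSO libraries and at 49.8, 29.8, 30.8 and 35.3 RPKM in the water libraries. The BPA libraries lay close together, with a mean of 34.6 ± 0.845 RPKM, while DMSO averaged 33.6 ± 1.96 RPKM and water 36.4 ± 9.20 RPKM (SD, n = 4 each). Without water 1 the water libraries averaged 31.98 ± 2.94 RPKM (SD, n = 3). The 95% confidence interval of the difference between BPA and DMSO ran from -0.29 to 0.37, that is from 0.821-fold to 1.29-fold.

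zim-3, whose protein serves chromosomes I and IV, was listed at 36.2, 40.0, 35.3 and 42.2 RPKM in the BPA libraries (1 to 4), at 38.4, 43.8, 35.0 and 43.9 RPKM in the DMSO libraries and at 49.9, 39.3, 36.6 and 41.4 RPKM in the water libraries. The groups overlapped throughout. Sample number 3 was the lowest library of its group in each of the 3 exposures, at 35.0 to 36.6 RPKM. The same holds for number 3 in 2.59% of all tested genes, and for any 1 number in 9.54%. Number 3 also held the highest sum of oocyte markers of its group (BPA 8321, DMSO 8341 and water 7053 RPKM). So it did for intestinal markers (109, 969 and 249 RPKM) and body wall muscle markers (127, 101 and 127 RPKM). The part of these markers in the zim-3 values was not tested. zim-3 differed by -0.06 between BPA and DMSO (SE 0.13; limma, adjusted p = 1) and by -0.11 between BPA and water (SE 0.13; limma, adjusted p = 0.987), where it was -0.03 without water 1.

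The 3 zim genes and him-8 lie next to each other on chromosome IV, on the same strand, in the order zim-1, zim-2, zim-3 and him-8 in the Ensembl annotation. That annotation uses another genome build than the files, so no coordinates are given. Their levels followed this order up to zim-3: zim-1 was below zim-2 and zim-2 below zim-3 in 12 of 12 libraries. The steps were small in some of them. The ratio of zim-3 to zim-1 was 1.02 to 1.39 in BPA (median 1.30), 1.32 to 1.62 in DMSO (median 1.39) and 1.04 to 1.73 in water (median 1.36), and these ranges overlapped. The annotated spans of zim-1 and zim-2 overlap on 1 strand, so that reads there could be credited to either gene. Further, 2 annotated pseudogenes overlap zim-1.

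**Figure D2:**
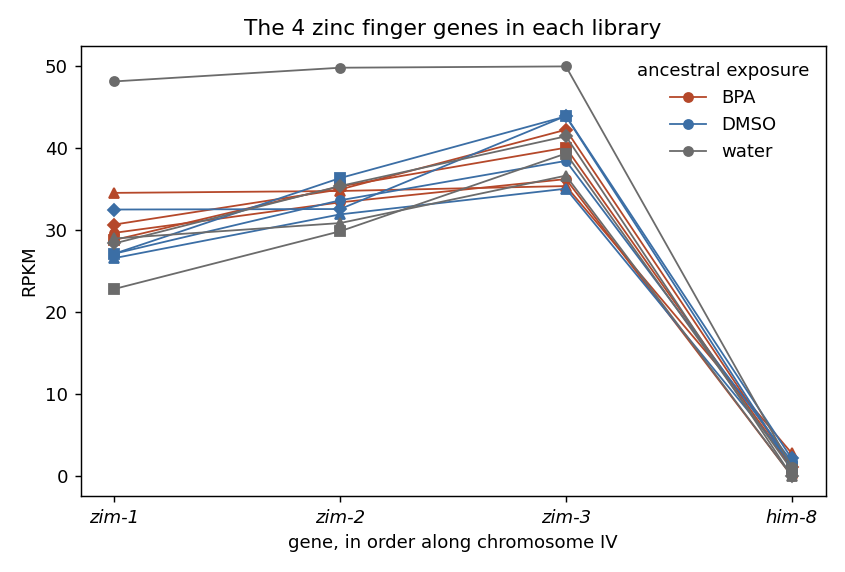
RPKM (vertical axis) of the 4 zinc finger genes in their order along chromosome IV (horizontal axis), 1 line for each of the 12 libraries, coloured by ancestral exposure. Levels step up from zim-1 to zim-3 in each library, with water 1 as the top line, and him-8 lies at no more than 2.76 RPKM.

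him-8 stood far below its neighbours. The BPA libraries (1 to 4) held it at 0, 0.942, 2.76 and 1.09 RPKM, with 1.75, 1.11, 1.44 and 2.12 RPKM in the DMSO libraries and 1.11, 0.746, 0 and 0 RPKM in the water libraries. Every DMSO library was thus above every water library, by a margin of 0.001 RPKM between DMSO 2 and water 1, while BPA spanned both other groups. Listed values of 0 can be failed estimates in these files. Of the tested genes 656 (8.67%) were listed at 0 in some library, among them 10 of 63 ribosomal protein genes, and 103 of the 656 exceeded 50 RPKM in another. At the estimated depths, 1 read over the longest annotated him-8 transcript (1254 bases) would be worth 0.0241 to 0.0570 RPKM, and 1 read over the shortest (120 bases) 0.252 to 0.595 RPKM. The length used for the deposited value is not given in the sources used here, so the him-8 levels may rest on few reads. him-8 reached 1 RPKM in 4 of 4 DMSO libraries but in only 3 of the others. It thus entered the test through the group in which it was highest, and its values in the comparisons with DMSO are given as a description. Between DMSO and water the difference was 0.90 (SE 0.38). With no filter on low values it did not pass either (limma, adjusted p = 0.901). Its size depended on the pseudocount, with 2.39 for a pseudocount of 0.1 and 0.28 for a pseudocount of 5. The difference between BPA and DMSO was -0.38 (SE 0.38), and it was -0.05 without BPA 1 and -0.69 without BPA 3.

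The nuclear envelope component sun-1 was the steadiest of the 7 in BPA. The BPA libraries (1 to 4) held it at 44.8, 44.5, 46.5 and 44.9 RPKM, with 45.1, 45.9, 38.4 and 46.0 RPKM in the DMSO libraries and 33.5, 43.9, 39.3 and 38.4 RPKM in the water libraries. All BPA libraries were above all water libraries, the nearest pair (BPA 2 and water 2) being 44.5 and 43.9 RPKM. BPA averaged 45.1 ± 0.884 RPKM, DMSO 43.8 ± 3.68 RPKM and water 38.8 ± 4.26 RPKM (SD, n = 4 each). The difference between BPA and water was 0.22 (SE 0.11, 95% confidence interval -0.02 to 0.46; limma, unadjusted p = 0.0691, adjusted p = 0.987), and it was 0.15 without water 1. Between BPA and DMSO it was 0.05 (SE 0.11; limma, adjusted p = 1), with an interval from 0.874-fold to 1.22-fold.

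plk-2 encodes the Polo-like kinase that gathers at pairing centres. The BPA libraries (1 to 4) held it at 65.0, 63.5, 62.3 and 60.2 RPKM, with 55.8, 53.0, 57.7 and 67.3 RPKM in the DMSO libraries and 35.8, 52.9, 59.9 and 52.5 RPKM in the water libraries. BPA lay above water in all libraries, but BPA 4 and water 3 differed by only 0.33 RPKM, and DMSO overlapped both groups. The means were 62.8 ± 2.03 RPKM over the BPA libraries, 58.4 ± 6.20 RPKM over the DMSO libraries and 50.3 ± 10.3 RPKM over the water libraries (SD, n = 4 each). The difference between BPA and water was 0.34 (SE 0.15, 95% confidence interval 0.01 to 0.66; limma, unadjusted p = 0.0420, adjusted p = 0.987). Water 1 held the lowest plk-2 level of the 12, at 0.597 of the median of the others. Without water 1 the water mean was 55.1 ± 4.17 RPKM (SD, n = 3) and the difference 0.19 (limma, adjusted p = 1). Against DMSO, BPA differed by 0.11 (SE 0.15; limma, adjusted p = 1).

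The related kinase gene plk-1, which acts in cell division generally and can also act at pairing centres, was expressed above plk-2 throughout. It is given beside plk-2 because of that relation, and was chosen after its values were seen. The BPA libraries (1 to 4) held it at 186, 180, 171 and 178 RPKM, with 163, 144, 168 and 178 RPKM in the DMSO libraries and 59.4, 178, 163 and 148 RPKM in the water libraries. Water 1 was the lowest library, as for plk-2. Unlike those of plk-2, the BPA libraries overlapped the water libraries.

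Leaving him-8 aside, the kinase gene chk-2 was the member that varied most in BPA and in DMSO, while in water zim-1 and zim-2 varied more. The BPA libraries (1 to 4) held it at 12.4, 10.0, 6.71 and 14.6 RPKM, with 19.2, 11.7, 8.13 and 7.13 RPKM in the DMSO libraries and 10.3, 14.1, 8.41 and 10.3 RPKM in the water libraries. The coefficient of variation was 30.9% in BPA, 47.5% in DMSO and 22.2% in water. The group means lay close together all the same, at 10.9 ± 3.38 RPKM over the BPA libraries, 11.5 ± 5.48 RPKM over the DMSO libraries and 10.8 ± 2.39 RPKM over the water libraries (SD, n = 4 each). The difference between BPA and DMSO was -0.03 (SE 0.31; limma, adjusted p = 1), but its interval reached from 0.615-fold to 1.57-fold, and without DMSO 1 the difference was 0.24. An annotated noncoding RNA on the other strand overlaps chk-2, and whether counting used strand is not stated.

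**Figure D3:**
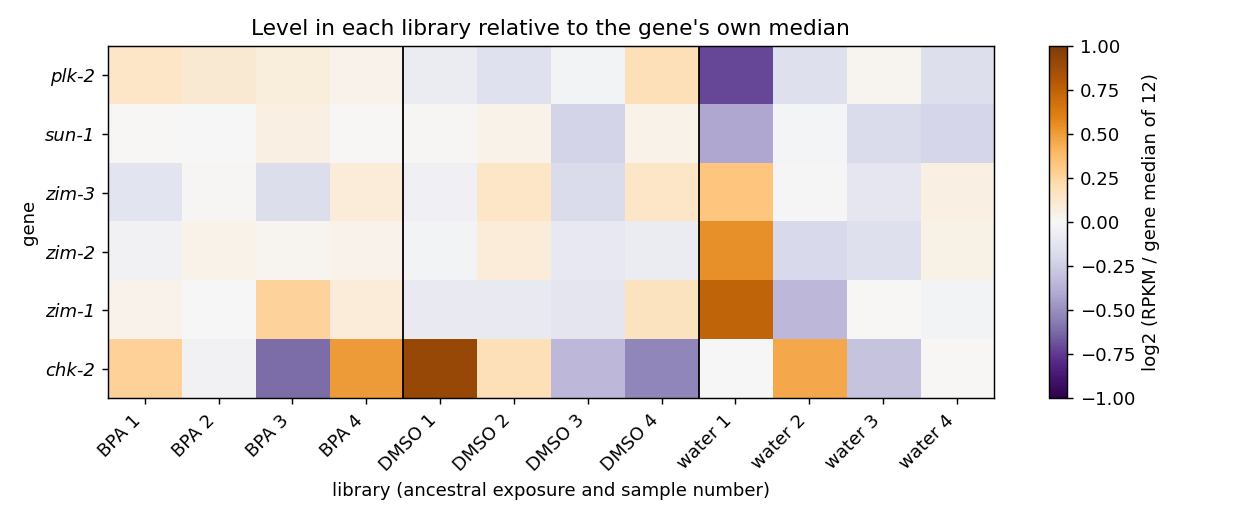
Level of 6 genes (rows) in each library (columns) as the log2 ratio of RPKM to the gene's own median over the 12 libraries. In water 1 the zim genes stand at 0.33 to 0.74 and plk-2 and sun-1 at -0.72 and -0.41, while chk-2 varies between libraries of every group. him-8 is left out because it is listed at 0 in 3 libraries.

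Read across libraries, the correlations between members changed with water 1, in both directions. In water 1, zim-1, zim-2 and zim-3 stood at 1.67, 1.48 and 1.27 times their medians over the other libraries, sun-1 at 0.749, plk-2 at 0.597 and chk-2 at 0.996 times. Over all 12 libraries Pearson's r of log2(RPKM + 1) was 0.84 between zim-1 and zim-2, 0.72 between zim-2 and zim-3, 0.75 between sun-1 and plk-2 and -0.77 between zim-2 and plk-2. Without water 1 these values were 0.44, 0.39, 0.35 and 0.00. Other pairs grew or turned without it: r was -0.50 between zim-1 and plk-2 with water 1 and 0.72 without it, and -0.47 and 0.31 between zim-1 and sun-1. It was 0.33 with and 0.54 without water 1 between him-8 and sun-1, -0.34 and -0.54 between zim-1 and chk-2, and -0.20 and -0.45 between plk-2 and chk-2. They are descriptions over libraries that share their normalization. The part that library composition has in them was not tested. Those of him-8 rest on values of which 3 were listed at 0, which can be failed estimates, and him-8 passed the filter only through DMSO.

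The spread of the members within groups was set beside that of all genes. Over the 4262 genes whose mean reached 10 RPKM, the median coefficient of variation was 11.7% in BPA, 14.9% in DMSO and 27.3% in water, and 15% in water without water 1. In BPA, zim-2 (2.44%), sun-1 (1.96%) and plk-2 (3.24%) lay below that median, and so did zim-1 (8.20%) and zim-3 (8.41%), while chk-2 (30.9%) lay above it. The same 5 lay below the median in DMSO, at 9.87% (zim-1), 5.82% (zim-2), 10.8% (zim-3), 8.39% (sun-1) and 10.6% (plk-2), and chk-2 (47.5%) above it. In water, zim-1 (34.5%) lay above it, and zim-2 (25.3%), zim-3 (13.8%), sun-1 (11%), plk-2 (20.4%) and chk-2 (22.2%) below it. Without water 1 the placements of zim-1 and chk-2 in water turned round: zim-1 (12.7%), zim-2 (9.19%), zim-3 (6.16%), sun-1 (7.27%) and plk-2 (7.57%) lay below the median and chk-2 (26.5%) above it.

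By sample number, no member had numbers 1 and 3 apart from numbers 2 and 4 in the same direction in all 3 exposures. zim-3 came nearest: both odd libraries were below both even ones in BPA and in DMSO, with mean differences of -0.20 and -0.25 on the log2(RPKM + 1) scale, and in water they overlapped. Such a separation with the odd numbers lower was seen in 17.8% of all tested genes in BPA and 19.6% in DMSO. The sums of oocyte markers were higher in both odd libraries than in both even ones in BPA and in DMSO, and overlapped in water. Their part in the zim-3 values was not tested. The labels do not say what equal numbers share.

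BPA was set against DMSO as the vehicle group. The labels do not say in which solvent BPA was given, so that a shared solvent is an assumption of this comparison. None of the 7 members passed (limma, adjusted p under 0.05), where 2 of 7570 genes did (0.0264%). At an unadjusted p under 0.05 there were also 0 members, against 0.872% of all genes. The groups overlapped for all 7 members, while BPA lay wholly above DMSO for 0.634% of all genes and wholly below it for 0.449%. The median difference of the 7 was 0.04, with 4 above 0, and that of all tested genes was 0.02, with 55.5% above 0. Since him-8 passed the filter only through DMSO, nothing is read from its part in these values.

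The comparisons of BPA and of DMSO with water share the 4 water libraries, so that their results are not independent. Between BPA and water, 0 of 7 members passed (limma), against 0.0132% of all genes, and plk-2 alone had an unadjusted p under 0.05, as did 2.71% of all genes. In 11 of 21 alternatives plk-2 no longer had one, among them the fit without water 1 and that with the replicate block. The groups did not overlap for sun-1 and plk-2, both higher in BPA, and 1.52% of all genes were separated in that direction (0.502% in the other). The median difference was -0.001 over the members, with 3 of 7 above 0, and -0.01 over all tested genes.

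Between DMSO and water, 0 of 7 members passed (limma), against 0.0132% of all genes. him-8 alone had an unadjusted p under 0.05, as did 1.70% of all genes, and it no longer had one in 6 of 20 alternatives (the replicate block, and without water 3, water 4, DMSO 1, DMSO 3 or DMSO 4). It was also the member whose groups did not overlap, with DMSO higher, as for 0.515% of all genes (0.37% the other way). Since it passed the filter only through DMSO, nothing is read from these 2 counts. The other members are given side by side. zim-1, zim-2 and zim-3 differed from water by -0.12, -0.09 and -0.05 in DMSO, sun-1 and plk-2 by 0.17 and 0.23, and chk-2 by 0.02. Without water 1 the differences of zim-1, zim-2 and zim-3 were 0.08, 0.07 and 0.04, those of sun-1 and plk-2 0.11 and 0.08, and that of chk-2 0.005.

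**Figure D4:**
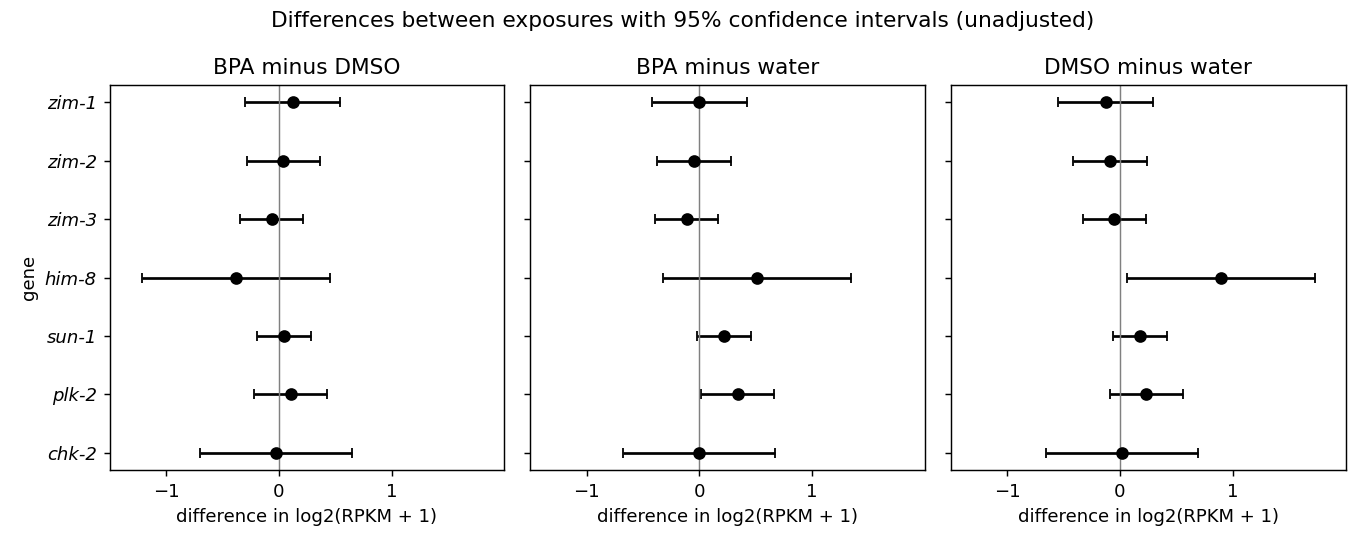
Differences in log2(RPKM + 1) (horizontal axes) for each gene (vertical axis), from limma, with unadjusted 95% confidence intervals. The interval of plk-2 between BPA and water (0.01 to 0.66) and that of him-8 between DMSO and water (0.06 to 1.73) leave out 0, and neither passed after adjustment. him-8 entered the test only through the DMSO libraries.

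Other genes of the pairing pathway were read from lists chosen by role. They hold 63 genes, of which 49 were matched by name and 45 were tested, and 0 passed in each of the 3 comparisons (limma, adjusted p under 0.05). Their median difference was 0.02 between BPA and DMSO (28 of 45 above 0), 0.04 between BPA and water (25 of 45) and 0.05 between DMSO and water (28 of 45). Single genes lay further out. The differences ran from -0.581 (gras-1) to 0.754 (him-5) between BPA and DMSO. They ran from -1.041 (gras-1) to 0.497 (plk-1) between BPA and water, and from -0.498 (him-5) to 0.365 (plk-1) between DMSO and water. At an unadjusted p under 0.05 there were 0, 1 and 1 of the 45, where 0.872%, 2.71% and 1.70% of all tested genes were in the 3 comparisons, so the counts are near the background. Both times the gene was xnd-1, a chromatin factor that sets where meiotic breaks form. xnd-1 averaged 99.7 ± 4.71 RPKM over the BPA libraries, 96.1 ± 8.91 RPKM over the DMSO libraries and 80.7 ± 6.14 RPKM over the water libraries (SD, n = 4 each).

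Among the 12 tested genes of the synaptonemal complex and chromosome axis, which pairing centres lead into synapsis, 0 passed and 6 were above 0 between BPA and DMSO (median -0.002). lab-1, which protects the cohesion of sister chromatids, averaged 376 ± 35.6 RPKM over the BPA libraries, 431 ± 58.3 RPKM over the DMSO libraries and 434 ± 124 RPKM over the water libraries (SD, n = 4 each). The central region gene syp-4 averaged 253 ± 21.4, 259 ± 33.8 and 239 ± 90.8 RPKM in the same groups. Both genes stood well above every pairing centre gene on the RPKM scale. On the log2(RPKM + 1) scale no difference between their groups exceeded its SE. The largest were -0.190 for lab-1 (BPA minus DMSO, SE 0.194) and 0.194 for syp-4 (DMSO minus water, SE 0.252).

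Of the regulators of pairing and of CHK-2, 8 were tested and 0 passed, with a median difference of 0.02 between BPA and DMSO. The immunophilin gene fkb-6 averaged 182 ± 21.8 RPKM over the BPA libraries, 171 ± 36.6 RPKM over the DMSO libraries and 189 ± 49.9 RPKM over the water libraries, and cra-1, needed for synaptonemal complex assembly, 166 ± 16.1, 165 ± 25.7 and 161 ± 79.4 RPKM (SD, n = 4 each).

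For movement along the nuclear envelope, 11 genes were tested and 0 passed, with 8 of 11 above 0 and a median of 0.05 between BPA and DMSO. The dynein light intermediate chain gene dli-1 averaged 647 ± 44.3 RPKM over the BPA libraries, 649 ± 118 RPKM over the DMSO libraries and 585 ± 258 RPKM over the water libraries. The lamin gene lmn-1 averaged 124 ± 8.91, 110 ± 15.7 and 105 ± 7.61 RPKM in these groups (SD, n = 4 each). Its difference between BPA and DMSO, 0.18 (SE 0.12), was the highest of the list.

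From the list of meiotic breaks and crossovers, 10 genes were tested and 0 passed, with a median of 0.01 between BPA and DMSO. spo-11, which encodes the enzyme that makes the breaks, averaged 137 ± 11.4 RPKM over the BPA libraries, 145 ± 15.9 RPKM over the DMSO libraries and 152 ± 23.8 RPKM over the water libraries (SD, n = 4 each). Of the meiotic cohesin list, 4 genes were tested and 0 passed, with a median of 0.07. The cohesin release factor wapl-1 averaged 450 ± 49.4 RPKM over the BPA libraries, 425 ± 122 RPKM over the DMSO libraries and 400 ± 178 RPKM over the water libraries, and smc-3 averaged 88.8 ± 8.68, 84.3 ± 10.2 and 71.6 ± 15.4 RPKM (SD, n = 4 each).

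The tested genes most like each member were found by Pearson's r of log2(RPKM + 1) over the 12 libraries, given as a description. zim-1 was most like B0261.1 (r = 0.975), Y39E4B.2 (0.971) and ekl-4 (0.956). zim-2 was most like the clathrin light chain gene clic-1 (0.989), Y53H1A.2 (0.985) and taf-8 (0.980), which encodes a subunit of a general transcription factor. zim-3 was most like cdc-48.3 (0.958), pdcd-2 (0.949) and K11H3.4 (0.947). Without water 1 these values were between 0.865 and 0.946.

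plk-2 was most like F55C5.8 (r = 0.978), the mismatch repair gene msh-2 (0.973) and dlat-1 (0.970), a subunit of the pyruvate dehydrogenase complex. sun-1 was most like stt-3 (0.926), which encodes an enzyme of protein glycosylation, C42C1.8 (0.882) and gly-5 (0.876). The highest values of him-8 (0.896, cpi-2, a cystatin gene) and chk-2 (0.862, madf-10) were below the highest value of each other member. That of him-8 still lay above the values of sun-1 with C42C1.8 and gly-5. Without water 1 the values were 0.9 for him-8 with cpi-2 and 0.863 for chk-2 with madf-10. Those of sun-1 were then 0.859 (stt-3), 0.863 (C42C1.8) and 0.818 (gly-5), so neither gene stayed below sun-1. Those of plk-2 were then 0.918 (F55C5.8), 0.905 (msh-2) and 0.935 (dlat-1). The other members were left out of the genes compared, and all points come from the same 12 libraries. For him-8, 3 of these points were listed at 0, which can be failed estimates, and it passed the filter only through DMSO.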

How the data were processed

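For every one of the 12 libraries the authors deposited transcript values, in RPKM per the file headers (11 tables), and in FPKM, the same quantity for single-end reads, in the table of BPA 1. Per the labels' protocols, cDNA was made with a SMART-Seq kit, amplified, prepared with Nextera XT and read as single ends of 50 bp. The submitters' processing notes name HISAT, StringTie and the build ce10. Versions and annotation: not given in the sources used here. The files hold no counts, and too few values were whole reads for a count test. Whether counting used strand is not stated.

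Values of 49201 transcripts were summed by gene name, leaving out 279 without a name. log2(RPKM + 1) of genes reaching 1 RPKM in 4 or more libraries was tested with limma 3.58.1 (R 4.3.3; all 12 libraries in 1 fit, variance trend, two-sided, Benjamini-Hochberg adjustment over 7570 genes, calls at 0.05), after tests on simulated data. A fold on this scale understates changes of low genes. At most 0.0228% of nonzero values were identical between 2 libraries. Members, lists and tests were chosen with earlier results of these data known. Genes named beside the members are those of highest mean in each list and the 3 most like each member, save where a choice by value is stated or follows from a count (xnd-1). Chromosomes and neighbours came from Ensembl release 115 by name. Figures were drawn in Python 3.11.15 with matplotlib 3.10.9.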

Additional observations from a re-analysis of the deposited data

Results flagged for a closer look

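Within groups of 4 libraries, the highest or lowest library was compared with its nearest neighbour by Dixon's test at the 95% level. Of 51 groups (17 genes in 3 exposures) 3 exceeded its limit, where chance gives about 1 in 20. zim-1 stood at 32.5 RPKM in DMSO 4, against 26.5 to 27.1 RPKM in the other DMSO libraries. The immunophilin gene fkb-6 stood at 225 RPKM in the same library, against 152 to 153 RPKM in the others. sun-1 stood at 38.4 RPKM in DMSO 3, against 45.1 to 46.0 RPKM, and that library also held the highest sum of intestinal markers, 969 RPKM. The part of these markers in the sun-1 value was not tested.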

How the results depend on the processing

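The 21 differences of the members were recomputed under 21 alternatives, which gave 438 values. Of these, 0 passed the threshold (limma, smallest adjusted p = 0.652), so the count of members called was 0 in each comparison under every alternative run. him-8 gave no value where genes needed a mean of 10 RPKM. In 28 values the sign was the other one, all in 9 differences that lay between -0.124 and 0.045 in the fit as reported, and the cause was not tested. Leaving out 1 library in turn, the difference ranged between BPA and DMSO from -0.016 to 0.069 for sun-1 and from -0.204 to 0.235 for chk-2. Between BPA and water it ranged from -0.141 to 0.208 for zim-1, from -0.128 to 0.112 for zim-2 and from -0.152 to 0.187 for chk-2. Between DMSO and water it ranged from -0.264 to 0.084 for zim-1, from -0.17 to 0.07 for zim-2, from -0.108 to 0.037 for zim-3 and from -0.242 to 0.197 for chk-2.

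Under the other alternatives the sign changed for zim-1 between BPA and water (0.001 with a pseudocount of 0.1, 0.115 with array weights), for zim-2 in the same comparison (0.061 with array weights) and for chk-2 (0.001 with a pseudocount of 5, 0.07 with quantile normalization, 0.08 with array weights). Between DMSO and water it changed with array weights for zim-1 (0.008), zim-2 (0.017) and zim-3 (0.00). Over all genes, 2 were called between BPA and DMSO, 1 between BPA and water and 1 between DMSO and water. In these 3 comparisons limma called 1, 3 and 3 when the third group was left out, 1, 1 and 0 among genes with a mean of 10 RPKM (63 at an unadjusted p under 0.05 for the count of 0), 1, 0 and 1 with values summed per locus (182 likewise), 3, 2 and 1 with array weights and 1, 1 and 1 with a pseudocount of 0.1. Without 1 library in turn they ranged from 2 to 3, from 1 to 2 (2 without water 1, DMSO 1 or DMSO 4) and from 1 to 2 (2 without DMSO 4).

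Sample numbers were not used as pairs, since the labels do not say what they share and not every same-numbered correlation was over 0.1. Same-numbered libraries had correlations of their deviations from -0.067 to 0.34, over 0.1 in 5 of 12 pairs, and in 7 of 12 the same-numbered library was the most like of the partner group, where an even share would be 3. For number 3 it was so in 3 of 3 pairs (0.152 to 0.34), and for no other number was it so in every pair. The number 3 libraries also held the highest sums of oocyte and intestinal markers of their groups. What same-numbered libraries share, and the part of these markers in the correlations, was not tested. With the replicate block limma called 1, 0 and 1 genes in the 3 comparisons (273 at an unadjusted p under 0.05 for the count of 0), and 0 members. Depth sets no counting interval here, since the files hold no counts, and him-8, at no more than 2.76 RPKM, is the member least well measured.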
